A study of Mus musculus with 22 samples.

Results

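The comparison described here set 3 ileum libraries of GRDim mice against 2 ileum libraries of GRWT mice, all from animals that drank normal water. They are 5 of the 22 libraries of the series and 5 of its 11 water libraries. They were chosen by genotype, water and a low level of Myh11, the smooth-muscle myosin heavy chain: every water library under 100 CPM (the count scaled by library size) entered. Myh11 lay between 6.51 and 20.5 CPM in these 5 libraries and between 386 and 463 CPM in the 6 water libraries left out. Those values chose the members, so they are a description and were not tested. The 2 kinds of library are called muscle-poor and muscle-rich here. Muscle content did not follow the tissue labels: the 5 members are labelled ileum, while 5 of the 6 muscle-rich water libraries carry the label intestinal epithelial cells (IEC), material scraped from the inner bowel. Which tissue the values stand for is therefore uncertain.

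The study set mice whose glucocorticoid receptor is wild type (GRWT) against mice homozygous for a receptor point mutation that weakens dimerisation (GRDim), on normal or zinc-supplemented water for 7 days. Levels are TMM-normalised CPM unless said otherwise. All animals were female FVB/N mice of 8 to 14 weeks in a conventional animal house, and both genotypes came from intercrosses of GRDim heterozygotes. The GRDim libraries are replicate 1 and a pair of columns under a single repeated name, called unnumbered library a and b, and the GRWT libraries are replicates 2 and 3. The mutation is present in every cell of the animal, so no difference below belongs to the epithelium by design. No source used here gives the time of day of tissue collection or the litter of each animal, and the p-values measure the spread between these libraries, which may be partly technical.

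The glucocorticoid receptor is a nuclear receptor that binds DNA as a monomer or dimer after it meets corticosterone. Dimers activate many of its induced genes, while repression of inflammatory genes relies less on them. In the gut wall the receptor restrains genes that interferons and microbes induce, among them the guanylate-binding proteins (GBPs), a family of GTPases that attack intracellular pathogens. Glucocorticoids also carry time-of-day information from the adrenal gland to the clocks of peripheral tissues.

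Nr3c1 itself, the gene of the receptor (ENSMUSG00000024431, GRCm38 chromosome 18, 39410545 to 39519421), stood at 204, 235 and 241 CPM in the GRDim libraries and 291 and 262 CPM in the GRWT libraries. The 3 GRDim values lay below both GRWT values, and the log2 fold change, GRDim over GRWT, was -0.29 ± 0.085 (SE), with an adjusted p of 0.0752 in edgeR's quasi-likelihood test. A point mutation leaves the count of a transcript in place, so these counts do not check the genotype labels. Nr3c2, the mineralocorticoid receptor that binds the same hormone, was at 78.9, 85.04 and 89.8 CPM against 129 and 116 CPM (-0.53 ± 0.081, adjusted p = 0.00517), under the fold threshold.

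Markers bear on the tissue label as follows. The 10 epithelial markers summed to 25633, 23842 and 24299.5 CPM in the GRDim libraries and 24502 and 25339.5 CPM in the GRWT libraries, and none was called, although Cdx1, an intestinal transcription factor, passed the adjusted p under the fold threshold (0.36 ± 0.076, adjusted p = 0.0214). Fabp6, the bile acid binding protein that marks ileum, chosen after its values were seen, stood at 8964, 9095 and 8020.0 CPM in the GRDim libraries and 10410.0 and 10986 CPM in the GRWT libraries, so all 5 libraries held ileal transcripts. The 10 smooth-muscle genes summed to 219, 230.4 and 219 CPM in the GRDim libraries and 269.6 and 224 CPM in the GRWT libraries. Since the libraries were picked for low Myh11, that list is no independent evidence. Totals ran from 13149951 to 14484582 counts, which puts a count of 3, the floor of detection, at 0.207 to 0.228 CPM. Without molecular identifiers on the reads, such a floor allows for counting error alone. In bulk tissue, fewer cells of a type and less RNA per cell cannot be told apart.

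The GRWT muscle-poor libraries, the 2 members and the 2 zinc ones, stood apart from the other 18 libraries of the series in copies of 1 ribosomal protein gene. Rplp0, which encodes a protein of the large ribosomal subunit, has processed copies elsewhere in the genome, among them Gm8730 (chromosome 8, 102864845 to 102865798), Gm9625 (chromosome 13, 67810246 to 67811200) and Rplp0-ps1 (chromosome 3, 93278141 to 93279073). Gm8730 matches the 954-base coding sequence of Rplp0 at 98.7% with 12 base edits, Gm9625 at 97.4% with 25, and Rplp0-ps1 at 93.6% with 61. Reads mapping to several places were left out of the counts, so a read is assigned among such copies by the few bases that differ. The same 60 coding bases (positions 388 to 447 of the Rplp0 coding sequence, GRCm38) are shown to make this plain, with capitals on the bases that differ between Rplp0 and a copy.
Rplp0: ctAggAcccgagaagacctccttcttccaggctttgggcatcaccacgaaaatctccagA
Gm8730: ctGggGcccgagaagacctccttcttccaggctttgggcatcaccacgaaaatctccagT
Gm9625: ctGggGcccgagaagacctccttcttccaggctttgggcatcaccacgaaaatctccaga
Gm8730 differs from Rplp0 at 3 of these bases and Gm9625 at 2.

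On plain library totals, Gm8730 stood at 6.24 to 6.80 CPM in the 2 GRWT members and at 160 to 200.1 CPM in the 3 GRDim members. Over the 18 libraries of the series that are not GRWT muscle-poor, it spanned 133 to 203 CPM. Gm9625 gave 2.79 to 3.57 CPM against 61.9 to 91.2 CPM in those 18, and Rplp0-ps1 gave 0.143 to 0.228 against 1.90 to 3.91 CPM. Rplp0 itself went the other way, at 722 to 765 CPM in the GRWT members and 376 to 499 CPM in those 18. Summed over the family, the levels overlapped, with 732 to 775 CPM in the GRWT members and 709 to 772 CPM in the GRDim members. Low levels of the 3 copies were shared by the 4 GRWT muscle-poor libraries, zinc ones included (Gm8730 at 2.19 to 6.28 CPM in the 2 zinc ones), and not by the muscle-rich GRWT libraries. Rplp0 itself was not high in all 4: it stood at 802 CPM in GRWT zinc replicate 2 but at 277 CPM in GRWT zinc replicate 3, where the family summed to 281 CPM. What sets these 4 apart (animal background, or preparation and handling of the libraries) was not tested, and it cannot be told apart from the genotype within this comparison.

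**Figure D1:**
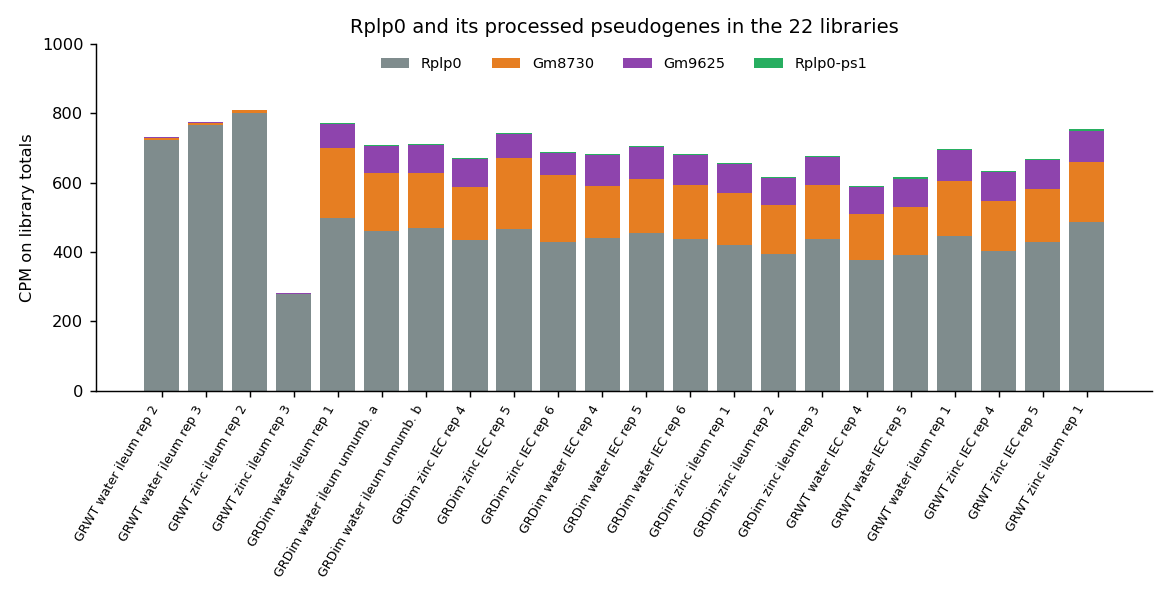
Stacked bars of Rplp0, Gm8730, Gm9625 and Rplp0-ps1 in CPM on library totals for each of the 22 libraries, the 4 GRWT muscle-poor ones first. These 4 bars are nearly all Rplp0, with Gm8730 at 2.19 to 6.80 CPM, while the other 18 hold Gm8730 at 133 to 203 CPM.

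Calls also crowded on 2 chromosomes. On chromosome 5, 25 of 884 genes tested were called (2.83%, against 1.22% of all genes tested), 13 higher and 12 lower. Of these, 10 lay among the 72 tested genes between 100 and 110 Mb (13.9%), the stretch that holds the GBP cluster. On chromosome 18, 10 of 337 tested genes were called (2.97%), and 9 of them lay among the 168 tested genes of the first 40 Mb (5.36%). The stretch of 30 to 40 Mb, which holds Nr3c1, had 3 of 88 called (3.41%), and that of 10 to 20 Mb 3 of 28 (10.7%). In the muscle-rich water libraries the called shares of chromosomes 5 and 18 were 9.26% and 7.71%, below the 11% over all genes there. Leaving out chromosome 5 gave 60 higher and 76 lower genes, and leaving out both gave 53 and 73.

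**Figure D2:**
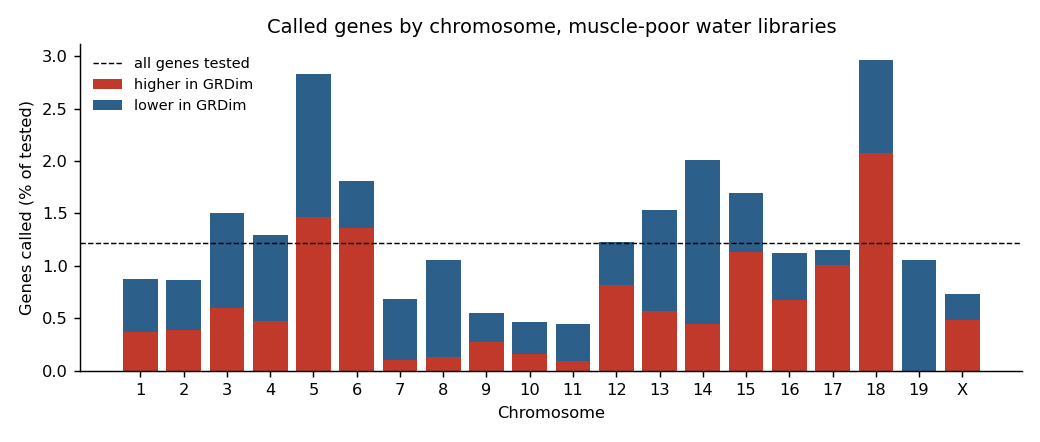
Percentage of tested genes called in the muscle-poor libraries for each chromosome (x axis), stacked as higher and lower in GRDim, with a dashed line at the 1.22% of all genes tested. Chromosomes 5 and 18 reach 2.83% and 2.97%.

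Of 13533 genes tested, 77 were called higher (0.569%) and 88 lower (0.650%) in GRDim, at an adjusted p under 0.05 and a log2 fold change beyond 0.8. Without the fold threshold 796 genes passed (5.88%), and 3046 had an unadjusted p under 0.05. For all 165 called genes the GRDim and GRWT libraries did not overlap. A call at these thresholds leaves little room for overlap, so this is a description and no support. Of all tested genes 20.2% did not overlap in the higher and 21.8% in the lower direction. With library totals in place of TMM scaling the median of all genes moved from 0.0082 to 0.11, and the split became 122 higher and 61 lower. In the fit that adds the 5 zinc muscle-poor libraries to the estimate of spread, 4 genes were called higher and 0 lower (783 at an unadjusted p under 0.05). That fit includes GRWT zinc replicate 3, whose Rplp0 family sum of 281 CPM was the lowest of the series. The part of this library in the drop was not tested. Adding the GRDim zinc muscle-poor libraries alone gave 63 higher and 70 lower genes. A fit of 21 libraries, all but GRWT zinc replicate 3, gave 85 and 95. In the fit of 10 muscle-poor libraries Gbp6 was the sole gene still called among the 49 called genes named here. Leaving out GRWT replicate 2 gave 38 and 45 calls, and leaving out GRWT replicate 3 gave 148 and 163.

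Among the 15 genes that rose most under the naming rule, which leaves out low genes and predicted gene models, Gbp6 came first. Gbp6 (ENSMUSG00000104713, chromosome 5, 105270702 to 105293698) stood at 35.7, 32.2 and 25.5 CPM in the GRDim libraries and 1.43 and 1.05 CPM in the GRWT libraries. All 3 GRDim libraries lay far above both GRWT ones, which sat close together, and the log2 fold change was 4.65 ± 0.23, adjusted p = 5.67e-06. Gbp8 (ENSMUSG00000034438, chromosome 5, 105014150 to 105139540), of the same family, was at 53.7, 47.4 and 41.4 CPM in the GRDim libraries and 2.70 and 6.65 CPM in the GRWT libraries, a rise of 3.33 ± 0.31 (adjusted p = 0.00622). Ifi44, an interferon-induced protein with antiviral activity, rose from 1.19 and 1.72 CPM in GRWT to 5.66, 5.04 and 5.00 CPM in GRDim libraries (1.83 ± 0.24, adjusted p = 0.0024). H2-Eb2, a gene of the MHC class II beta chain family, gave 2.18, 1.73 and 1.87 CPM against 0.477 and 0.523 CPM (1.92 ± 0.36, adjusted p = 0.0128). Gbp6, Gbp8 and Ifi44 stayed called whichever library was left out, while H2-Eb2 lost its call without GRWT replicate 2. Here and below, a fit without a GRWT library has a single library in that group. The spread between libraries then comes from the GRDim libraries alone.

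Tlr6 and Tlr1, receptors for bacterial lipopeptides, which lie side by side on chromosome 5 and pair with Tlr2, were among the higher genes. Tlr6 (chromosome 5, 64952031 to 64960097) stood at 4.07, 3.67 and 4.20 CPM in the GRDim libraries and 1.03 and 1.42 CPM in the GRWT libraries (1.69 ± 0.25, adjusted p = 0.00499). Tlr1 (chromosome 5, 64924679 to 64933563) gave 22.4, 21.2 and 17.8 CPM against 9.45 and 11.3 CPM, a rise of 0.98 ± 0.14 (adjusted p = 0.00371). Both kept the call whichever library was left out. Tlr4, the receptor for lipopolysaccharide, was low in all libraries at 4.14, 4.32 and 4.54 CPM in the GRDim libraries and 0.953 and 2.09 CPM in the GRWT libraries and rose by 1.49 ± 0.29 (adjusted p = 0.0163), a call lost without unnumbered library a or GRWT replicate 2. Alox15, a lipoxygenase that makes lipid mediators in macrophages and eosinophils, was at 4.79, 2.66 and 3.87 CPM against 0.397 and 1.20 CPM (2.21 ± 0.42, adjusted p = 0.0149). Its call, like that of Asprv1, was lost without GRWT replicate 2. Asprv1, a retroviral-like aspartic protease known from skin, gave 9.44, 5.90 and 5.47 CPM against 0.953 and 2.02 CPM (2.20 ± 0.36, adjusted p = 0.0103).

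The other genes among the 15 that rose most had no single function. Abhd3, a phospholipase (ENSMUSG00000002475, chromosome 18, 10642092 to 10706771), was the most abundant of them at 198, 210.1 and 190.1 CPM in the GRDim libraries and 58.4 and 57.4 CPM in the GRWT libraries, and the 3 GRDim values were close together (1.78 ± 0.076, adjusted p = 1.09e-06). Pkd2 encodes polycystin-2, a cation channel of cilia and the endoplasmic reticulum (chromosome 5, 104459450 to 104505819). It stood at 7.33, 7.34 and 7.47 CPM in the GRDim libraries and 1.03 and 1.20 CPM in the GRWT libraries, a rise of 2.72 ± 0.21 (adjusted p = 0.000141). On library totals, the 4 GRWT muscle-poor libraries of the series held Pkd2 at 0.753 to 1.14 CPM, under the 4.91 to 44.0 CPM of the other 18. Acacb, the acetyl-CoA carboxylase that restrains mitochondrial fat oxidation, gave 5.16, 6.04 and 5.14 CPM against 0.874 and 1.42 CPM (2.23 ± 0.26, adjusted p = 0.00143). Bglap3, an osteocalcin-related gene, gave 8.13, 7.91 and 7.34 CPM against 2.07 and 1.20 CPM (2.26 ± 0.23, adjusted p = 0.000772), and Dnah8, an axonemal dynein heavy chain, 10.6, 15.1 and 11.3 CPM against 3.10 and 4.11 CPM (1.77 ± 0.21, adjusted p = 0.00174).

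Grm4, a metabotropic glutamate receptor, stood at 2.61, 3.09 and 3.07 CPM in the GRDim libraries and 0.397 and 1.05 CPM in the GRWT libraries (1.99 ± 0.36, adjusted p = 0.0117). Ttr, the thyroid hormone and retinol carrier made by the liver, was at 1.45, 2.81 and 3.20 CPM against 0.953 and 0.523 CPM (1.76 ± 0.44, adjusted p = 0.0431). Greb1l, known from kidney development, gave 1.16, 1.80 and 2.34 CPM against 0.556 and 0.523 CPM (1.70 ± 0.43, adjusted p = 0.0443). These are low levels, and the adjusted p of Ttr and Greb1l lay near the threshold. The call of Grm4 was lost without unnumbered library a or GRWT replicate 2. Those of Ttr and Greb1l were lost without any one of unnumbered libraries a and b and GRWT replicates 2 and 3. Their fold changes in those fits were 1.38 to 2.24 for Ttr and 1.44 to 1.75 for Greb1l. Emp2, an epithelial membrane protein outside the 15 and chosen after its values were seen, was at 23.7, 24.5 and 26.1 CPM against 9.77 and 9.34 CPM (1.37 ± 0.11, adjusted p = 0.00016). On library totals, the 18 libraries that are not GRWT muscle-poor held it at 24.2 to 51.9 CPM and the GRWT zinc muscle-poor libraries at 0.616 to 14.9 CPM.

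**Figure D3:**
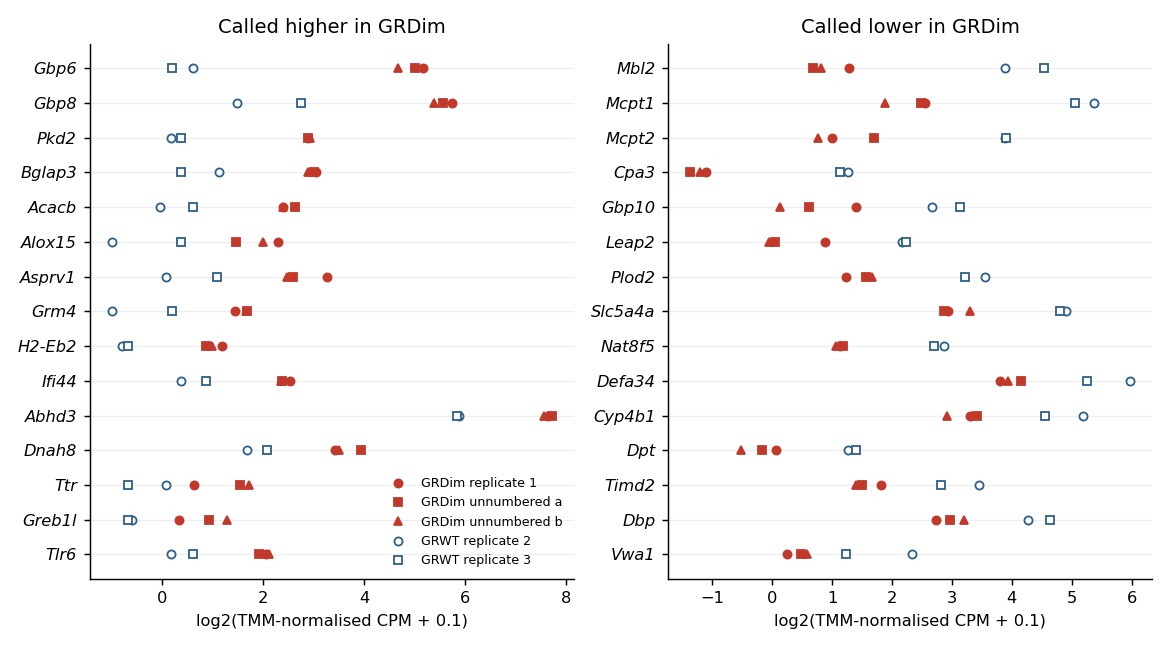
Level of the 15 genes with the largest rise (left) and the 15 with the largest fall (right) under the naming rule, as log2 of TMM-normalised CPM plus 0.1, with 1 marker per library, filled for GRDim and open for GRWT. The naming rule requires that the filled and open markers do not overlap. The gap is widest for Gbp6 among the higher genes (4.65) and for Mbl2 among the lower ones (-3.37).

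Among the lower genes, mast-cell products stood together. Mcpt1 and Mcpt2 are chymases of mucosal mast cells, and Cpa3 is their carboxypeptidase. Mcpt1 (ENSMUSG00000022227, chromosome 14, 56017971 to 56020384) stood at 5.74, 5.47 and 3.60 CPM in the GRDim libraries and 41.5 and 33.3 CPM in the GRWT libraries, and fell by 2.92 ± 0.17 on the log2 scale (adjusted p = 3.8e-05). Mcpt2 (ENSMUSG00000022226, chromosome 14, 56042041 to 56044642) was at 1.89, 3.17 and 1.60 CPM in the GRDim libraries and 14.7 and 14.8 CPM in the GRWT libraries (-2.73 ± 0.22, adjusted p = 0.00016), and Cpa3 (chromosome 3, 20215620 to 20242181) at 0.363, 0.288 and 0.334 CPM in the GRDim libraries and 2.30 and 2.09 CPM in the GRWT libraries (-2.71 ± 0.35, adjusted p = 0.00249). For each of the 3, every GRDim library lay below both GRWT libraries, and no single library decided the call. Kit, the stem cell factor receptor of mast cells, which other gut cells also express, was at 20.3, 24.2 and 25.2 CPM against 31.9 and 28.1 CPM and was not called (-0.37 ± 0.11, adjusted p = 0.0847). The 16 granulocyte and mast-cell markers, 5 of which could be tested, summed to 30.2, 35.9 and 32.97 CPM in the GRDim libraries and 102 and 82.2 CPM in the GRWT libraries, with 3 of the 5 called lower (0.650% of all genes tested) and a median of -2.71.

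Mbl2, a mannose-binding lectin of the complement system (ENSMUSG00000024863, chromosome 19, 30232942 to 30239687), had the largest fall among the named genes, at 2.32, 1.51 and 1.67 CPM in the GRDim libraries and 14.8 and 23.2 CPM in the GRWT libraries (-3.37 ± 0.24, adjusted p = 0.000141). Leap2, a peptide that antagonises the ghrelin receptor (chromosome 11, 53422181 to 53423170), was at 1.74, 0.935 and 0.868 CPM in the GRDim libraries and 4.37 and 4.63 CPM in the GRWT libraries (-1.93 ± 0.29, adjusted p = 0.00504). Gbp10 (ENSMUSG00000105096, chromosome 5, 105215699 to 105239533), a GBP, went against Gbp6 and Gbp8, at 2.54, 1.44 and 1.00 CPM in the GRDim libraries and 6.27 and 8.66 CPM in the GRWT libraries (-2.18 ± 0.31, adjusted p = 0.00469). Gbp10 and Gbp6 are close copies: of the 50-base windows of the transcript Gbp6-201, 62.3% occur in Gbp10 transcripts, and 70.6% of those of Gbp10-201 occur in Gbp6 transcripts. How reads divided between the copies was not tested, so the opposite signs of Gbp6 and Gbp10 are uncertain.

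Among the 15 that fell most, Slc5a4a, of the sodium-glucose cotransporter family, stood at 7.55, 7.19 and 9.81 CPM in the GRDim libraries and 29.8 and 27.7 CPM in the GRWT libraries (-1.81 ± 0.14, adjusted p = 0.000136). Cyp4b1, a cytochrome P450, was at 9.73, 10.6 and 7.47 CPM against 36.4 and 23.5 CPM (-1.69 ± 0.21, adjusted p = 0.00517). Nat8f5, an N-acetyltransferase, was at 2.11, 2.16 and 2.00 CPM against 7.23 and 6.42 CPM (-1.70 ± 0.19, adjusted p = 0.00108). Defa34, an alpha-defensin of Paneth cells, was at 13.8, 17.7 and 15.3 CPM against 63.1 and 38.1 CPM (-1.69 ± 0.24, adjusted p = 0.0175). The call of Cyp4b1 was lost without GRDim replicate 1, and that of Defa34 without any one of the GRDim libraries. Timd2, a receptor for ferritin, gave 3.41, 2.73 and 2.54 CPM against 10.9 and 6.95 CPM (-1.62 ± 0.23, adjusted p = 0.00351).

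Plod2, Dpt and Vwa1 encode, in turn, a collagen lysyl hydroxylase, the matrix protein dermatopontin and a cartilage-type matrix protein. Plod2 stood at 2.25, 2.88 and 3.07 CPM in the GRDim libraries and 11.7 and 9.26 CPM in the GRWT libraries (-1.93 ± 0.19, adjusted p = 0.000584), and kept its call whichever library was left out. Dpt was at 0.944, 0.791 and 0.601 CPM against 2.30 and 2.54 CPM (-1.63 ± 0.31, adjusted p = 0.0137), and Vwa1 at 1.09, 1.29 and 1.40 CPM against 4.92 and 2.24 CPM (-1.49 ± 0.35, adjusted p = 0.0345). Dpt was not called without unnumbered library a or either GRWT library, and Vwa1 was not called without any one of the GRDim libraries or GRWT replicate 2. Dbp, the remaining gene of the 15, is described with the clock genes.

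The strand setting of the counting is not given in the sources used here, so genes that overlap another gene are uncertain. Gbp6 and Gbp10 share exons with Gm43302, Gbp8 with Gbp4 and Gbp9, and Nat8f5 with Nat8f6. Akr1c19, Rtp4, Ifng, Tgtp1, Ifi47 and Cyp4v3 also share an exon with another gene of their strand. Dbp, Tef, Cry2, Plod2, Vwa1, Dnah8, Plet1, Mt2, Psmb9, Pycard, Ciita, Slc3a1, Irf1, Duoxa2, Ccnd1, B3gnt7, Ifi47, Nr3c2, Cubn, Dpp4 and Heph overlap a gene on the other strand. Members of the H2-Q, defensin and Slc5a4 families and Tgtp1 have near-identical copies.

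Lists of interferon-inducible genes were counted next. Of 11 GBPs tested, Gbp6 and Gbp8 were called higher and Gbp10 lower, against 0.569% and 0.650% of all genes tested. The median was 0.85, against 0.0082 over all genes. In 6 of 11 all GRDim libraries lay above both GRWT ones, and in 1 below, against 20.2% and 21.8% of all genes tested. Summed over the list, the level was 269, 208 and 173 CPM in the GRDim libraries and 70.1 and 140.2 CPM in the GRWT libraries. The largest sum was in GRDim replicate 1 and the smallest in GRWT replicate 2. Gbp3, for example, was at 5.52, 5.11 and 4.80 CPM in the GRDim libraries and 1.83 and 3.81 CPM in the GRWT libraries and was not called (0.85 ± 0.27, adjusted p = 0.0927).

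None of the 8 immunity-related GTPases (IRGs), which destroy the vacuoles of intracellular pathogens, was called higher (0.569% of all genes tested) or lower, and the median was 0.58. Iigp1 gave 70.3, 54.2 and 51.9 CPM in the GRDim libraries and 8.58 and 35.1 CPM in the GRWT libraries. Both GRWT libraries lay below the GRDim ones but far from each other, and the fold change was 1.42 ± 0.66 (adjusted p = 0.337). Tgtp1 was at 12.1, 10.9 and 9.01 CPM against 1.75 and 7.32 CPM (1.21 ± 0.52, adjusted p = 0.26) and Ifi47 at 253, 217 and 178 CPM against 119 and 171 CPM (0.57 ± 0.22, adjusted p = 0.21). The level summed over the 9 IRGs of the list, 1 of them too low to be tested, was 1316, 1051 and 924 CPM in the GRDim libraries and 621 and 1028 CPM in the GRWT libraries, so the 2 GRWT libraries differed from each other. Without GRWT replicate 3, 4 of the 8 were called higher, in a fit that called 148 of 13949 genes higher.

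Of 22 genes of interferon signalling 0 were called, with a median of -0.014, and 5 lay wholly above and 7 wholly below in GRDim (20.2% and 21.8% of all genes tested did). Irf1, an interferon-induced transcription factor, was at 524, 458 and 421 CPM in the GRDim libraries and 372 and 526 CPM in the GRWT libraries (0.058 ± 0.16, adjusted p = 0.87), and its sign turned without GRDim replicate 1 (-0.028) or GRWT replicate 2 (-0.17). Jak2, a kinase of cytokine receptors, was at 191, 193 and 201 CPM against 264 and 255 CPM (-0.41 ± 0.063, adjusted p = 0.0053). Ifng, the type 2 interferon itself, was low at 1.89, 1.29 and 1.20 CPM against 0.397 and 0.971 CPM (1.06 ± 0.43, adjusted p = 0.179). Cxcl9, the chemokine that interferon gamma induces, was at 18.7, 15.1 and 10.2 CPM in the GRDim libraries and 7.94 and 13.1 CPM in the GRWT libraries with overlapping groups (0.47 ± 0.32, adjusted p = 0.444), and 0 of 7 such chemokines were called. Of 36 type 1 interferon-stimulated genes, Ifi44 was called higher and Rtp4 lower, against 0.569% and 0.650% of all genes tested, with a median of 0.017. Rtp4, a receptor transport protein with antiviral activity, was at 4.79, 4.32 and 4.20 CPM against 10.01 and 6.27 CPM (-0.87 ± 0.21, adjusted p = 0.0382), a call lost in 4 of the 5 fits with 1 library fewer. Oas3, a sensor of double-stranded RNA, was at 38.9, 32.1 and 36.04 CPM against 62.03 and 48.1 CPM (-0.62 ± 0.12, adjusted p = 0.0159).

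Among 25 MHC class I and antigen-processing genes 2 were called higher and 0 lower, against 0.569% and 0.650% of all genes tested. At any fold 7 passed the adjusted p, 6 higher and 1 lower, against 5.88% of all genes. The lower one was H2-Q1, a class Ib gene, at 51.1, 48.3 and 42.5 CPM against 69.02 and 60.8 CPM (-0.46 ± 0.093, adjusted p = 0.0193). H2-M3, which presents formylated bacterial peptides, stood at 13.7, 13.7 and 13.7 CPM in the GRDim libraries and 7.86 and 7.69 CPM in the GRWT libraries (0.82 ± 0.12, adjusted p = 0.00499), a call kept whichever library was left out. H2-Q7, a class Ib gene, was at 29.4, 27.3 and 22.6 CPM against 14.1 and 15.99 CPM (0.81 ± 0.13, adjusted p = 0.0068), near the fold threshold, and was not called without GRDim replicate 1, unnumbered library a or GRWT replicate 2. Psmb9, an immunoproteasome subunit, gave 285, 258 and 249 CPM against 152 and 196 CPM (0.60 ± 0.11, adjusted p = 0.0143), under the fold threshold. In 13 of the 25 all GRDim libraries lay above both GRWT ones, and in 3 below (all genes tested: 20.2% and 21.8%). Of 12 class II genes 1 was called, H2-Eb2, higher (0.569% of all genes tested). In 8 of the 12 all GRDim libraries lay above both GRWT ones, and in 1 below (20.2% and 21.8% of all). At any fold 4 passed the adjusted p (5.88% of all genes). Among them 1 was lower, Ctss, a lysosomal protease that trims the invariant chain (-0.31 ± 0.068, adjusted p = 0.0252). H2-Eb1, a class II beta chain, was at 54.5, 56.98 and 54.5 CPM against 37.7 and 42.1 CPM (0.47 ± 0.078, adjusted p = 0.00801) and Ciita, the class II transactivator, at 169, 166 and 167 CPM against 123 and 145 CPM (0.32 ± 0.08, adjusted p = 0.0441).

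Of 16 genes of necroptosis and extrinsic death 0 were called. Zbp1, a nucleic acid sensor that starts necroptosis, stood at 147, 117 and 103 CPM in the GRDim libraries and 73.8 and 105 CPM in the GRWT libraries (0.46 ± 0.21, adjusted p = 0.289). Ripk3, its kinase partner, was at 59.3, 51.2 and 51.3 CPM against 42.1 and 49.00 CPM (0.24 ± 0.096, adjusted p = 0.169), and Mlkl, the protein that breaks the membrane, at 44.3, 35.5 and 34.6 CPM against 28.4 and 34.1 CPM (0.28 ± 0.13, adjusted p = 0.22). Of 17 inflammasome and gasdermin genes 0 were called and 3 passed the adjusted p (5.88% of all genes tested), among them Pycard, the adaptor protein (0.44 ± 0.10, adjusted p = 0.032), and Naip5, a flagellin sensor (-0.40 ± 0.071, adjusted p = 0.0117). Of 20 Toll-like receptor and NF-kB genes, Tlr1 and Tlr4 were called higher (Tlr6 is not in the list), against 0.569% of all genes tested, with a median of 0.14. In the fit of 10 muscle-poor libraries the count was 0, and that fit called 4 of 13908 genes higher.

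Genes known to respond to adherent gut microbes had a median of 0.55, with 0 of 14 called. Duoxa2, which matures the oxidase that makes hydrogen peroxide at the epithelial surface, stood at 34.6, 26.8 and 16.4 CPM in the GRDim libraries and 5.88 and 16.4 CPM in the GRWT libraries (1.20 ± 0.60, adjusted p = 0.35). Plet1, a marker of epithelial progenitors, varied widely between libraries, at 56.1, 33.2 and 11.7 CPM in the GRDim libraries and 0.874 and 10.2 CPM in the GRWT libraries. Its fold change was 2.57 ± 1.25 with an adjusted p of 0.354. Slc6a14, an amino acid transporter, was at 242, 218 and 195 CPM against 80.5 and 166 CPM (0.82 ± 0.37, adjusted p = 0.307).

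Immune-cell markers moved unequally. Of 9 plasma and B cell markers Jchain and Igkc were called higher (0.569% of all genes tested), with a list median of 0.98 against 0.0082 over all genes. Jchain, which joins secreted IgA, stood at 26.7, 35.3 and 24.1 CPM in the GRDim libraries and 12.5 and 12.1 CPM in the GRWT libraries (1.22 ± 0.16, adjusted p = 0.00371). Igkc, the kappa constant region, was at 79.4, 93.9 and 58.5 CPM in the GRDim libraries and 35.3 and 33.8 CPM in the GRWT libraries (1.16 ± 0.21, adjusted p = 0.0386), a call lost without GRDim replicate 1 or either GRWT library. Igha, the IgA heavy chain, was at 128, 138 and 79.1 CPM against 48.6 and 42.5 CPM (1.33 ± 0.28, adjusted p = 0.0762). The 77 higher genes included Jchain and, apart from it, 7 immunoglobulin or T cell receptor genes. The 20 markers of intraepithelial T cells summed to 669, 623 and 460.3 CPM in the GRDim libraries and 308 and 628 CPM in the GRWT libraries, with GRWT replicate 3 inside the GRDim range, and 0 of the 19 tested were called. Cd8a, a co-receptor of these cells, was at 59.1, 59.6 and 51.4 CPM against 33.4 and 49.4 CPM (0.45 ± 0.16, adjusted p = 0.15). The part of cell numbers in any of these differences was not tested.

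Glucocorticoid-induced genes were counted in the same way. Of 31 tested, 1 was called higher (Slc9a3) and 0 lower, against 0.569% and 0.650% of all genes tested, with a median of -0.17. At any fold 4 passed the adjusted p, 1 higher and 3 lower, against 5.88% of all genes. In 4 all GRDim libraries lay above and in 12 below both GRWT ones, beside 20.2% and 21.8% of all genes tested. Tsc22d3, which encodes the leucine zipper protein GILZ, stood at 37.8, 43.4 and 46.5 CPM in the GRDim libraries and 45.1 and 41.3 CPM in the GRWT libraries (-0.021 ± 0.097, adjusted p = 0.925). Fkbp5, a co-chaperone that dampens the receptor, was at 97.6, 80.5 and 112 CPM against 101 and 103 CPM (-0.077 ± 0.12, adjusted p = 0.745), and Per1, also a clock gene, at 11.5, 13.2 and 11.9 CPM against 15.2 and 12.5 CPM (-0.18 ± 0.13, adjusted p = 0.44). Sgk1, a kinase that regulates sodium channels, was at 69.99, 159 and 149 CPM in the GRDim libraries and 231 and 88.9 CPM in the GRWT libraries (-0.34 ± 0.65, adjusted p = 0.811). Its GRWT libraries lay far apart, and without GRWT replicate 2 the fold change was 0.50. Tsc22d3 turned to 0.081 with library totals, to 0.061 without GRDim replicate 1 and to 0.042 without GRWT replicate 2, and Fkbp5 to 0.024 with library totals and to 0.039 without unnumbered library a.

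Mertk, a receptor for dying cells, had a small difference at 65.4, 79.6 and 75.1 CPM against 119.6 and 115 CPM (-0.67 ± 0.087, adjusted p = 0.00243). Slc9a3, the sodium-hydrogen exchanger of the brush border, was at 51.99, 40.9 and 35.6 CPM in the GRDim libraries and 23.1 and 25.8 CPM in the GRWT libraries (0.80 ± 0.16, adjusted p = 0.024). It stood just past the fold threshold, and it was not called without GRDim replicate 1, unnumbered library a or either GRWT library. Of 19 genes of steroid receptors and metabolism 1 was called, Akr1c19, lower (0.650% of all genes tested). Akr1c19, a member of the hydroxysteroid dehydrogenase family, was at 27.7, 35.4 and 37.8 CPM against 64.5 and 54.4 CPM (-0.82 ± 0.13, adjusted p = 0.00855). It was not called without GRDim replicate 1 or GRWT replicate 2.

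Circadian clock genes gave the most lower calls of the 45 lists: 5 of 17 were lower and 0 higher, against 0.650% and 0.569% of all genes tested, with a median of -0.26. Dbp and Tef encode related transcription factors that carry the clock's rhythm to output genes, and Per3, Cry2 and Nr1d2 encode repressors within the loop. Dbp (ENSMUSG00000059824, chromosome 7, 45705088 to 45710203) stood at 6.53, 7.70 and 9.08 CPM in the GRDim libraries and 19.1 and 24.7 CPM in the GRWT libraries (-1.49 ± 0.16, adjusted p = 0.000968). Per3 (ENSMUSG00000028957, chromosome 4, 151003652 to 151044665) was at 6.53, 10.1 and 11.1 CPM in the GRDim libraries and 25.7 and 23.98 CPM in the GRWT libraries (-1.42 ± 0.18, adjusted p = 0.00296), and Tef (ENSMUSG00000022389, chromosome 15, 81802421 to 81826863) at 56.7, 65.1 and 67.2 CPM in the GRDim libraries and 118 and 124 CPM in the GRWT libraries (-0.94 ± 0.084, adjusted p = 0.000321). Cry2 (chromosome 2, 92403646 to 92434043) was at 10.7, 12.1 and 11.7 CPM against 23.7 and 20.1 CPM (-0.93 ± 0.12, adjusted p = 0.00239) and Nr1d2 (chromosome 14, 18204054 to 18239127) at 59.4, 74.2 and 77.1 CPM against 125 and 132 CPM (-0.87 ± 0.10, adjusted p = 0.00191). For all 5 the 3 GRDim libraries lay below both GRWT libraries. Dbp, Per3, Tef and Cry2 kept the call whichever library was left out, and Nr1d2 was not called without GRDim replicate 1.

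Of the other clock genes, Nfil3, a repressor of the same output genes that Dbp activates, was at 16.4, 11.4 and 12.2 CPM in the GRDim libraries and 7.47 and 8.66 CPM in the GRWT libraries (0.72 ± 0.18, adjusted p = 0.0408), and Arntl, the activator of the loop, chosen after its values were seen, at 33.6, 33.7 and 30.96 CPM against 26.9 and 23.4 CPM (0.38 ± 0.095, adjusted p = 0.044). Both passed the adjusted p below the fold threshold. In all, 8 of the 17 passed it (5.88% of all genes did), 2 higher and 6 lower, and 9 lay wholly below and 2 wholly above in GRDim (21.8% and 20.2% of all genes tested). Tissue collection times are not given in the sources used here, so a difference in phase and a difference in level cannot be told apart.

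The regions around the start sites of the 5 lower clock genes were searched, after their values were seen, for the E-box CACGTG, which the clock activators bind, and the D-box TTATGNAA, which Dbp and Tef bind, on both strands. The sequences are from RefSeq (GRCm38.p6), 250 bases before to 50 after the start. Of all 32851 such promoters, 7.15% hold the E-box and 3.38% the D-box. Counted per gene, 11.6% of the 9932 tested genes with a promoter hold the E-box and 2.49% the D-box. Tef has an E-box in each of 2 promoters and Per3 a pair of D-boxes, and the letters were not found in the windows of Dbp, Cry2 and Nr1d2. Per3 and the second Tef promoter are shown with the motifs in capitals, as members that fell together, from chr4:151044616-151044915 on the minus strand and chr15:81811164-81811463 on the plus strand.
Per3: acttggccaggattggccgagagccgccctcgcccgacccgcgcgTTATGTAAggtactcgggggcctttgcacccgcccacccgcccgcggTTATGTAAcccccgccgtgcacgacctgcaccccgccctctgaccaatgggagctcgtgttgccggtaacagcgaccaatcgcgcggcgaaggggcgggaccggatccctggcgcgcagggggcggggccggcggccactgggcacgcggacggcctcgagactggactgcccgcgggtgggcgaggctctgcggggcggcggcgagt
Tef: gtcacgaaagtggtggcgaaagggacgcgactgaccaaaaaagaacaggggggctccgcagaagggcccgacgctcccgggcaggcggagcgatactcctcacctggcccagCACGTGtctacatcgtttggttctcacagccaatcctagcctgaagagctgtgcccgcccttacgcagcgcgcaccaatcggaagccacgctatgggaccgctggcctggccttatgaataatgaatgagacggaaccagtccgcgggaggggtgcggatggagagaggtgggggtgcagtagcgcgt
A match is a description of letters and not a site.

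For the called genes as a whole, 2 other motifs were counted on both strands: the STAT element GAS (TTCNNNGAA) and a loose glucocorticoid element (ACANNNTGT). Of the 77 higher genes 41 had a promoter in the table, of which 14.6% held the GAS and 4.88% the glucocorticoid element. Of the 88 lower genes 58 had one, with 15.5% and 8.62%. Among the 9932 tested genes with a promoter the shares were 8.39% and 5.07%. GAS hits were 6 of 41 and 9 of 58 genes. Gbp6, Gbp8 and Gbp10 had no entry.

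Brush-border genes, the transporters and enzymes of the absorptive surface, were mostly at lower values. Of 39 tested, Slc15a1 and Slc5a12 were called lower and Slc9a3 higher, with a median of -0.35. In 28 of the 39 all GRDim libraries lay below both GRWT ones (2 above), against 21.8% of all tested genes. Of all genes tested, 0.650% were called lower and 0.569% higher. The lower count rose without GRWT replicate 3, a fit that leaves a single GRWT library. At any fold 19 of the 39 passed the adjusted p, 18 of them lower, against 5.88% of all genes. The level summed over the 41 genes of the list was 26637, 27708 and 28267 CPM in the GRDim libraries and 40874 and 38813 CPM in the GRWT libraries.

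**Figure D4:**
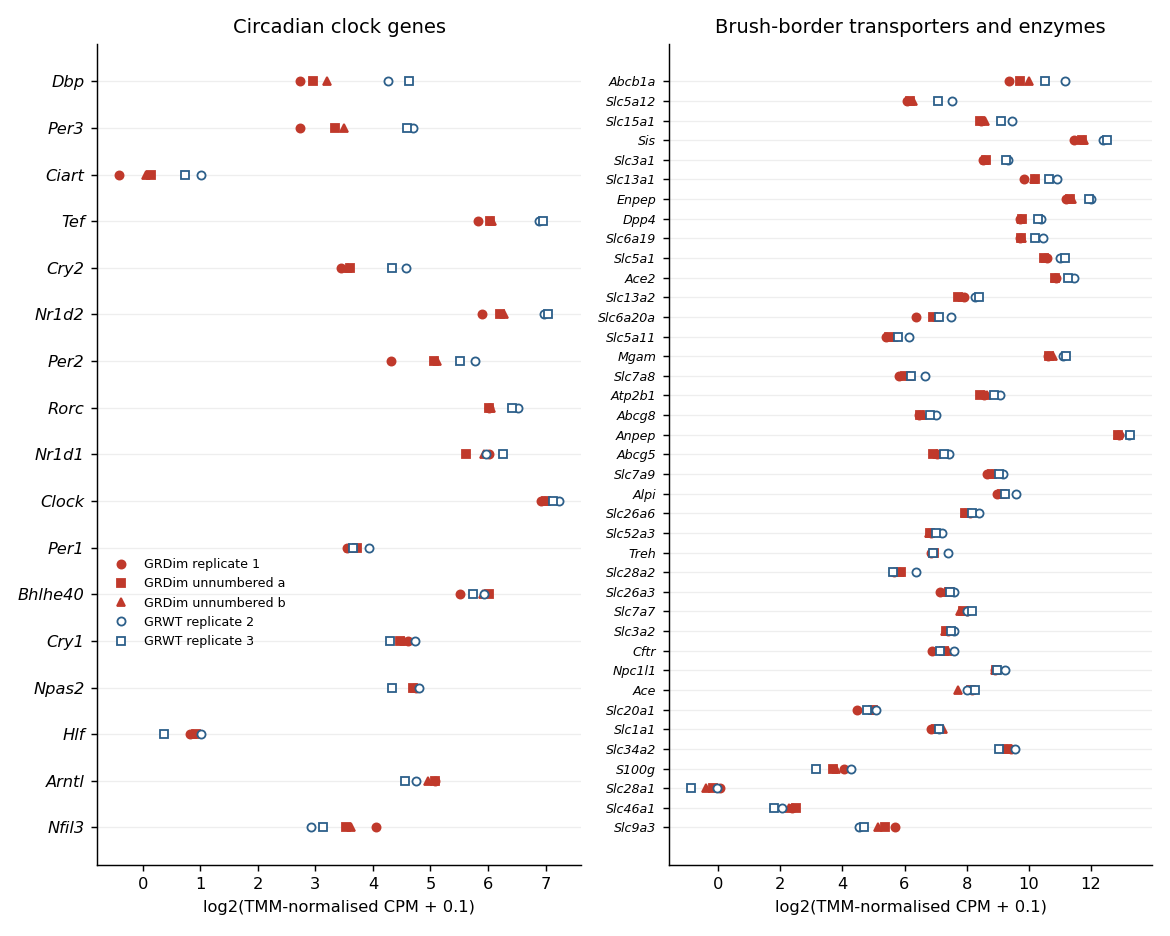
Level of the 17 clock genes (left) and the 39 brush-border genes (right), ordered by fold change, as log2 of TMM-normalised CPM plus 0.1, with 1 marker per library, filled for GRDim and open for GRWT. In the 5 clock genes called lower the filled markers lie left of the open ones, as they do in 28 of the 39 brush-border genes.

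Slc15a1, the peptide transporter, stood at 350.2, 341 and 384 CPM in the GRDim libraries and 704 and 549 CPM in the GRWT libraries (-0.81 ± 0.10, adjusted p = 0.00259). Slc5a12, a sodium-coupled lactate transporter, was at 66.9, 72.95 and 77.8 CPM against 183 and 134 CPM (-1.13 ± 0.13, adjusted p = 0.00277). The fold change of Slc15a1 is close to the threshold. Its call was lost without GRDim replicate 1, unnumbered library a or GRWT replicate 2, and that of Slc5a12 without GRDim replicate 1. Sis, sucrase-isomaltase, was among the most abundant members at 2790.0, 3358 and 3533 CPM in the GRDim libraries and 5379 and 5850.5 CPM in the GRWT libraries (-0.80 ± 0.10, adjusted p = 0.00224), and lay at the edge of the fold threshold. Slc3a1, part of the basic amino acid transporter, was at 372, 396 and 382 CPM against 637 and 617 CPM (-0.71 ± 0.063, adjusted p = 0.000321). Slc5a1, the sodium-glucose cotransporter, was at 1535, 1423 and 1463 CPM against 2054 and 2278 CPM (-0.56 ± 0.074, adjusted p = 0.0027). The peptidases Enpep and Dpp4 had fold changes of -0.67 ± 0.078, adjusted p = 0.0016 and -0.59 ± 0.067, adjusted p = 0.00133.

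Slc2a2, the basolateral glucose transporter and a gene of proximal small intestine, was low at 0.581, 0.144 and 0.133 CPM in the GRDim libraries and 1.43 and 2.24 CPM in the GRWT libraries (-2.67 ± 0.53, adjusted p = 0.017), with unnumbered libraries a and b under the floor, and was not called without unnumbered library a or GRWT replicate 3. Of 10 enterocyte markers 0 were called and 5 passed the adjusted p (5.88% of all genes tested), all lower, and 7 lay wholly below in GRDim (21.8% of all). That count of 0 did not hold without GRWT replicate 3, a fit that leaves a single GRWT library. Fabp2, the intestinal fatty acid binding protein, was at 3763, 4044 and 3818 CPM against 7096 and 5340.2 CPM (-0.68 ± 0.11, adjusted p = 0.00729), and Apob, of chylomicrons, at 2859, 3278 and 2936 CPM against 4759.9 and 4205 CPM (-0.57 ± 0.086, adjusted p = 0.00525). Of 30 lipid and ketone genes 0 were called, Ppargc1a, a coactivator of mitochondrial genes, being at 29.3, 28.3 and 29.4 CPM against 46.9 and 46.8 CPM (-0.69 ± 0.075, adjusted p = 0.00101).

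In the ileal bile acid axis 1 of 12 genes was called lower and 0 higher, against 0.650% and 0.569% of all genes tested. Abcc2, an efflux pump for conjugates, stood at 145, 152 and 172 CPM in the GRDim libraries and 316 and 239 CPM in the GRWT libraries (-0.83 ± 0.12, adjusted p = 0.00783), and was not called without GRDim replicate 1 or GRWT replicate 2. Slc10a2, the apical bile acid transporter, was at 862, 975 and 1013 CPM against 1675 and 1409 CPM (-0.70 ± 0.093, adjusted p = 0.0027), under the fold threshold. Cubn, the vitamin B12 receptor, was at 428, 595 and 634 CPM against 1283 and 969 CPM (-1.03 ± 0.21, adjusted p = 0.06). In 7 of the 12 genes all GRDim libraries lay below both GRWT ones and in 0 above, against 21.8% and 20.2% of all genes tested.

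Of 22 cytochrome P450 genes Cyp4b1 was called lower (0.650% of all genes tested), with a median of -0.31. At any fold 7 passed the adjusted p, 1 higher and 6 lower, against 5.88% of all genes. In 9 all GRDim libraries lay below both GRWT ones and in 3 above (21.8% and 20.2% of all). Cyp4v3, a fatty acid hydroxylase, was at 176, 214 and 217 CPM against 324 and 273 CPM (-0.56 ± 0.11, adjusted p = 0.0164). Cyp1a1, the main target of the aryl hydrocarbon receptor, was at 0.799, 0 and 0.0667 CPM in the GRDim libraries and 3.81 and 1.64 CPM in the GRWT libraries, at or near the floor in GRDim, and was not called (adjusted p = 0.0973). Of 26 genes of oxidative stress and glutathione 0 were called. Gclc, the rate-limiting enzyme of glutathione synthesis, was at 109, 117 and 112 CPM against 189 and 186 CPM (-0.74 ± 0.065, adjusted p = 0.000321).

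Zinc, the study's treatment, was not given to these animals. Of 34 zinc, iron and copper genes tested 0 were called, and 6 passed the adjusted p (5.88% of all genes tested), all lower. Mt1, a metallothionein, stood at 78.1, 93.5 and 115 CPM in the GRDim libraries and 159 and 155 CPM in the GRWT libraries (-0.71 ± 0.14, adjusted p = 0.0323), under the fold threshold, and Mt2 at 5.88, 9.86 and 15.5 CPM against 33.9 and 21.7 CPM (-1.40 ± 0.44, adjusted p = 0.169). Slc30a2, a zinc exporter of Paneth cells, was at 89.02, 72.01 and 66.9 CPM against 66.1 and 69.6 CPM (0.16 ± 0.11, adjusted p = 0.433), and Slc39a4, the intestinal zinc importer, at 284, 275 and 258 CPM against 321 and 318 CPM (-0.23 ± 0.066, adjusted p = 0.0689). Slc31a1, the copper importer, was at 196, 215 and 223 CPM against 369.7 and 339 CPM (-0.75 ± 0.074, adjusted p = 0.000642), and Heph, a ferroxidase for iron export, at 402, 399 and 397 CPM against 534 and 512 CPM (-0.39 ± 0.061, adjusted p = 0.00612).

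Of 16 Paneth cell genes Defa26 was called lower and 0 higher, against 0.650% and 0.569% of all genes tested (Defa34 is not in the list). The median was -0.50, and 9 of 16 lay wholly below in GRDim (21.8% of all genes tested). The lower count rose without GRWT replicate 2, a fit that leaves a single GRWT library. With library totals 0 of them were called lower, in a fit that called 61 of 13533 genes lower. Defa26, an alpha-defensin, stood at 4.43, 5.40 and 3.60 CPM in the GRDim libraries and 6.91 and 12.5 CPM in the GRWT libraries (-1.13 ± 0.26, adjusted p = 0.0396), and was not called without any one of the GRDim libraries or GRWT replicate 3. Ang4, a bactericidal ribonuclease, was at 239, 268 and 206 CPM against 324 and 402 CPM (-0.61 ± 0.13, adjusted p = 0.0324), and Mptx1, a mucosal pentraxin, at 26.8, 33.5 and 54.6 CPM against 109.6 and 85.01 CPM (-1.34 ± 0.35, adjusted p = 0.136). Of 18 goblet cell genes 0 were called and 6 passed the adjusted p (5.88% of all genes tested), all lower. Clca1, a secreted mucus protein, was at 3312, 3297 and 3131 CPM against 4262 and 4260.2 CPM (-0.39 ± 0.069, adjusted p = 0.0109), and B3gnt7, a glycosyltransferase, at 253, 156 and 110.4 CPM against 32.1 and 77.01 CPM (1.66 ± 0.64, adjusted p = 0.27). Of 30 cell cycle genes 0 were called, while in 21 all GRDim libraries lay above both GRWT ones and in 0 below, against 20.2% of all genes. Ccnd1, cyclin D1, was at 259, 245 and 233 CPM against 163 and 201 CPM (0.43 ± 0.092, adjusted p = 0.0227), and Mcm3, of the replication helicase, at 44.6, 49.4 and 47.5 CPM against 35.3 and 36.98 CPM (0.38 ± 0.079, adjusted p = 0.0202).

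The muscle-rich water libraries, which share no library with the ones above, give the same genotype contrast. They are 3 GRDim libraries labelled IEC against 2 GRWT libraries with that label and 1 labelled ileum. There 870 of 15418 genes tested were called higher (5.64%) and 831 lower (5.39%). Of the 77 genes higher in the muscle-poor libraries 76 were tested there, 60 with the same sign, and 39 were called in the same direction and 1 in the opposite one. Of the 88 lower genes 83 were tested, 74 with the same sign, and 45 were called in the same direction and 5 in the opposite one. The median fold changes in the muscle-poor and then the muscle-rich libraries were 1.38 and 0.85 for the higher genes, and -1.06 and -1.01 for the lower genes.

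**Figure D5:**
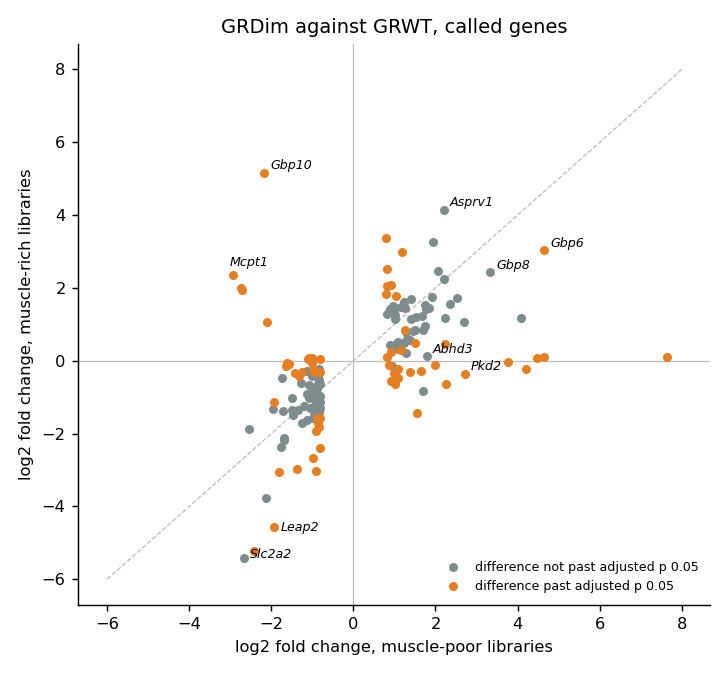
Log2 fold change, GRDim over GRWT, in the muscle-poor (x axis) and the muscle-rich libraries (y axis) for the genes called in the muscle-poor ones and tested in both, with a dashed line of equal change and orange for genes that passed the interaction test. Gbp6 is high in both, at 4.65 and 3.04, while Mcpt1 is at -2.92 and 2.37.

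Gbp6 and Gbp8 rose in the muscle-rich libraries too, by 3.04 and 2.43 (adjusted p = 5.24e-05 and 5.27e-09). There 10 of 11 GBPs and 8 of 8 IRGs tested were called higher, against 5.64% of all genes. Gbp10 was higher there, opposite to its sign in the muscle-poor libraries, at 3.39, 3.22 and 1.47 CPM against 0.0670, 0.124 and 0 CPM (adjusted p = 4.26e-05), with the GRWT libraries under the floor. Mcpt1 was higher there too, at 9.35, 7.73 and 4.64 CPM against 0.603, 1.87 and 1.71 CPM (2.37, adjusted p = 0.00337), as were Mcpt2 (1.99, adjusted p = 0.0034) and Cpa3 (1.93, adjusted p = 0.00151). Mbl2, at 1.02, 0.684 and 0.244 CPM against 0.0670, 0 and 0.0712 CPM, was too low to be tested there. Zbp1 and Cxcl9, not called in the muscle-poor libraries, gave 3.18, adjusted p = 5.14e-10 and 2.61, adjusted p = 0.00155. Of the 5 lower clock genes Cry2 alone was called in the muscle-rich libraries (-1.01, adjusted p = 7.48e-06). Dbp, Per3, Tef and Nr1d2 had fold changes of -1.01, -0.33, -0.92 and -0.46 there, with adjusted p of 0.232, 0.214, 0.198 and 0.496. In each of these 4 genes 1 library, GRWT ileum replicate 1, stood above the other 5: Dbp, for example, was at 1.56, 0.958 and 1.16 CPM against 4.69, 1.12 and 1.64 CPM and Nr1d2 at 34.8, 26.1 and 31.1 CPM against 69.5, 27.4 and 29.3 CPM, that library being the first of the GRWT values. The other GRWT values lay within or just above the GRDim range. The clock genes called lower there were Cry2, Npas2 (-1.01) and Per2 (-1.01), and the last pair was chosen after its values were seen. Of the 39 brush-border genes tested 12 were called lower there and 1 higher, against 5.39% and 5.64% of all genes.

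Whether the genotype effect itself differed between muscle-poor and muscle-rich libraries was tested as an interaction over all 11 water libraries, and 1754 of 15982 genes passed at an adjusted p under 0.05 (11%). Among the 77 higher genes 32 passed and among the 88 lower genes 34. These genes were chosen for their effect in the muscle-poor libraries, which is part of the interaction, so the choice favours a pass and nothing is read from these shares. The interaction was -7.32 for Gbp10 (adjusted p = 5.79e-05), -5.28 for Mcpt1 (adjusted p = 0.000255) and -6.96 for Mbl2 (adjusted p = 9.45e-05), muscle-poor minus muscle-rich. It was 1.62 for Gbp6 (adjusted p = 0.0461), and Gbp8 did not pass (adjusted p = 0.133). Of the 5 lower clock genes Per3 passed (-1.09, adjusted p = 0.0334). The muscle classes differ in tissue label and in the copies of Rplp0 among the GRWT libraries as well as in muscle, and these cannot be told apart. Without GRWT replicate 3 the number that passed was 803, and without GRDim replicate 1 it was 1826.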

How the data were processed

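Single-end, stranded poly-A libraries were sequenced by the authors, mapped to mouse build mm10 with HISAT2 2.0.4 and assigned to genes with featureCounts, multimapping reads excluded. The deposited values are raw read counts for 54838 genes, and the authors tested them with DESeq2. The annotation release and the strand setting of the counting are not given in the sources used here. Names and positions come from GENCODE vM21 (GRCm38), where 54809 identifiers were found, and promoters from RefSeq (GRCm38.p6).

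From the counts, CPM and fold changes were computed with edgeR 4.0.16 (limma 3.58.1, R 4.3.3): TMM scaling, factors 0.959 to 1.036, filterByExpr on the 2 groups, robust quasi-likelihood F tests and Benjamini-Hochberg adjustment over the 13533 tested genes. Calls required an adjusted p under 0.05 and a log2 fold change beyond 0.8, the study's thresholds, and for an interaction the adjusted p alone. The SE was derived from the F statistic. Library pairs differed by more than sampling noise (chi-square per degree of freedom 5.55 to 39.5). The fit was tested on simulated data.

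Libraries were grouped by their labels. The members, gene lists and tests were chosen with earlier results of these data known. Genes named are, per direction, the 15 called genes with the largest fold change, a mean of at least 1 CPM, groups that do not overlap and a proper symbol (56 higher and 70 lower genes qualified), a set of genes of prior interest, of which 1 is not reported here, and up to 4 members per list with the lowest p and the list's extremes. Rplp0 and its copies, Emp2, Fabp6, Arntl, Npas2 and Per2 were chosen after their values were seen. Lists are described by counts and medians, with no set test. The alternatives were other scalings (DESeq2 1.42.0 size factors or library totals), DESeq2, other filters on low counts, no robust estimation, further libraries in the fit, each library left out, and chromosomes 5 and 18 left out, the last chosen after seeing the data.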

Additional observations from a re-analysis of the deposited data

Results flagged for a closer look

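For 1754 genes the genotype effect differed between the muscle-poor and the muscle-rich water libraries by the interaction test (adjusted p under 0.05). The values that follow are for genes named above that passed it, as the log2 fold change in the muscle-poor minus that in the muscle-rich libraries.

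The log2 fold change was lower (less positive or more negative) in the muscle-poor libraries for several immune genes. The mast-cell genes Mcpt1, Mcpt2 and Cpa3 differed by -5.28, -4.72 and -4.64. Gbp10 differed by -7.32 and Mbl2 by -6.96, with GRWT muscle-rich libraries at or under the floor, so these fitted values are no bound. The interferon-inducible genes Tgtp1, Zbp1, Cxcl9, Ifi47 and Irf1 differed by -3.23, -2.72, -2.14, -1.38 and -0.92, and Ifng itself by -2.80, with GRWT muscle-rich libraries at or under the floor. The necroptosis genes Mlkl and Ripk3 differed by -1.34 and -0.72, the antigen presentation genes H2-Q7, Psmb9 and Ciita by -1.69, -1.48 and -1.25, and Cd8a by -1.83.

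Of the other genes with a lower fold change, Slc6a14 differed by -4.49, Timd2 by -1.57, Dpt by -1.48 and Per3 by -1.09. Slc9a3 differed by -1.01, Rplp0 by -0.86, Ccnd1 by -0.81 and Plod2 by -0.79. Slc3a1, Enpep, Gclc, Slc5a1 and Heph differed by -0.48, -0.47, -0.39, -0.30 and -0.28. Those genes, and Timd2, Dpt, Per3 and Plod2, had negative fold changes in both classes, larger in size in the muscle-poor libraries.

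The log2 fold change was higher (more positive or less negative) in the muscle-poor libraries for Pkd2 (3.07), Bglap3 (2.90), Grm4 (2.11), Acacb (1.78), Emp2 (1.69) and Gbp6 (1.62). Leap2 differed by 2.64, with the GRDim muscle-rich libraries at or under the floor. The fold change was higher too for Slc5a4a (1.25), Ang4 (1.03), Abcc2 (0.99), Slc30a2 (0.86), Fabp2 (0.70), Mertk (0.62), Tsc22d3 (0.62), Cdx1 (0.32) and Slc39a4 (0.44). Leap2, Slc5a4a, Ang4, Abcc2, Fabp2, Mertk and Slc39a4 had negative fold changes in both classes, smaller in size in the muscle-poor libraries. Pkd2, Emp2 and Rplp0 are also genes at which the GRWT muscle-poor libraries stood apart, and the part of that in these differences was not tested.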

How the results depend on the processing

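Counts of genes called higher and lower in the muscle-poor comparison, 77 and 88, became 122 and 61 with library totals. They were 156 and 158 with no filter on low counts and 49 and 61 with at least 5 CPM in 2 libraries. With all 11 water libraries they were 117 and 107. With the GRDim zinc muscle-poor libraries added they were 63 and 70, and with all 10 muscle-poor libraries 4 and 0. DESeq2 gave 85 and 85, of which 66 and 72 were shared with edgeR. Leaving out each library in turn gave 38 to 148 higher and 45 to 163 lower genes, and 803 to 1826 genes whose genotype effect differed between muscle classes. Of the 49 called genes named, 27 stayed called in all 5 such fits and 23 in all 18 alternatives with a value but the fit of 10 libraries, where Gbp6 alone stayed called. Library totals ended the calls of Nr1d2, Defa26, Rtp4, Akr1c19, Abcc2 and Slc15a1, and DESeq2 that of Greb1l, while the fit with the GRDim zinc libraries ended 13, that of 11 water libraries 10 and that of 21 libraries (all but GRWT zinc replicate 3) 17. Signs turned, among genes not called, for Irf1 (-0.028 without GRDim replicate 1, and -0.17 to 0.33 over the 5 left-out libraries), Tsc22d3 (0.081 with library totals, 0.042 without GRWT replicate 2, and -0.089 to 0.061 over the left-out libraries), Fkbp5 (0.024 with library totals, and -0.20 to 0.039 over the left-out libraries) and Sgk1 (-0.87 to 0.50, the latter without GRWT replicate 2). The cause was not tested. No paired analysis was possible because the columns of GRDim replicates 2 and 3 share a single name and carry no number, so the replicate block was not run. Fold changes of genes with libraries near or under the floor of 0.207 to 0.228 CPM, such as Cpa3 and Slc2a2, are imprecise and are no bound.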
